A study of Mus musculus with 4 samples.

Results

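Neutrophil granule genes were followed on 4 whole-transcript microarrays, 1 per sample, of lineage-negative, c-Kit-positive marrow cells (LK cells, a mixture of stem cells and committed progenitors) from mice of the NOD strain, which develops autoimmune diabetes. All samples spent 4 h at 37 °C in StemSpan, a serum-free medium. The 2 vehicle samples received DMSO and the 2 combination samples received dmPGE2 (10 µM), a stable analog of prostaglandin E2, plus dexamethasone (10 µM), a synthetic glucocorticoid. Within each group the labels number the samples 1 and 2, and they do not say what a number stands for. The sources used here do not give the age and sex of the mice, how many were pooled per sample or where each duplicate came from, and the series' design calls the duplicates biological. Samples with 1 drug alone were not analysed here. The genes were taken by symbol from a list of 33 that covers azurophil, specific and gelatinase granule contents, the S100 proteins, the phagocyte oxidase and a few surface and late-stage proteins. A probe set was used if its platform annotation named exactly 1 gene, and each gene was read from its probe set with the highest mean. This gave 31 of the 33 genes, out of 30743 genes in all. Fpr1 and Fpr2, the formyl peptide receptors, had no probe set under their names and were not analysed here. The annotations of Chil3 and Wfdc21 give the current and an older symbol of 1 gene and were counted as 1 symbol.

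Neutrophils load their granules in sequence. Azurophil granules, with myeloperoxidase and the serine proteases, are filled at the promyelocyte stage, specific granules, with lactoferrin and cathelicidin, at the myelocyte stage, and gelatinase granules later still. The granule content thus follows the stage at which each gene is transcribed, and the order is set by transcription factors of the C/EBP family among others. The NADPH oxidase, whose membrane subunits lie partly in specific granule membranes, makes superoxide in phagocytes.

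Values are deposited log2 RMA signals, an array measure with no read depth, and the number of arrays limits the precision. The 23 background probe sets reached 5.55, and a signal at or below this level is called within the background range here. Levels are compared only within a gene, since probe sets differ in brightness, and a summed signal of a marker list is set by its brightest probe sets. Stem and progenitor markers were present, with Kit at 10.18 and 10.32 on the vehicle arrays and 10.51 and 9.62 on the combination arrays. All 4 measured T cell markers and 3 of 4 measured B cell markers lay within the background range on every array. So did Ly6g, the defining surface antigen of mouse neutrophils, but only 1 of 7 measured mature neutrophil markers. The same held for 2 of 5 measured eosinophil and 1 of 4 measured megakaryocyte markers. It held for 0 of 8 monocyte, 0 of 5 mast cell and basophil, and 0 of 3 erythroid markers.

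The largest differences among the granule genes lay between the arrays numbered 1 and those numbered 2. The specific granule genes Ngp, Camp and Ltf were 18.2-fold to 69.9-fold lower on the number 2 array of each group, while the 4 azurophil genes differed between the numbers by 0.12 to 0.43 on the log2 scale, averaged over the groups and in the opposite direction. The specific and gelatinase class as a whole spanned -5.59 to 0.74, and differences between classes were not tested. Between combination and vehicle no member passed the test, and the largest differences were those of Chil3, Hp, Cybb and Mcemp1. The plot of signals by array shows both patterns at once.

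**Figure D1:**
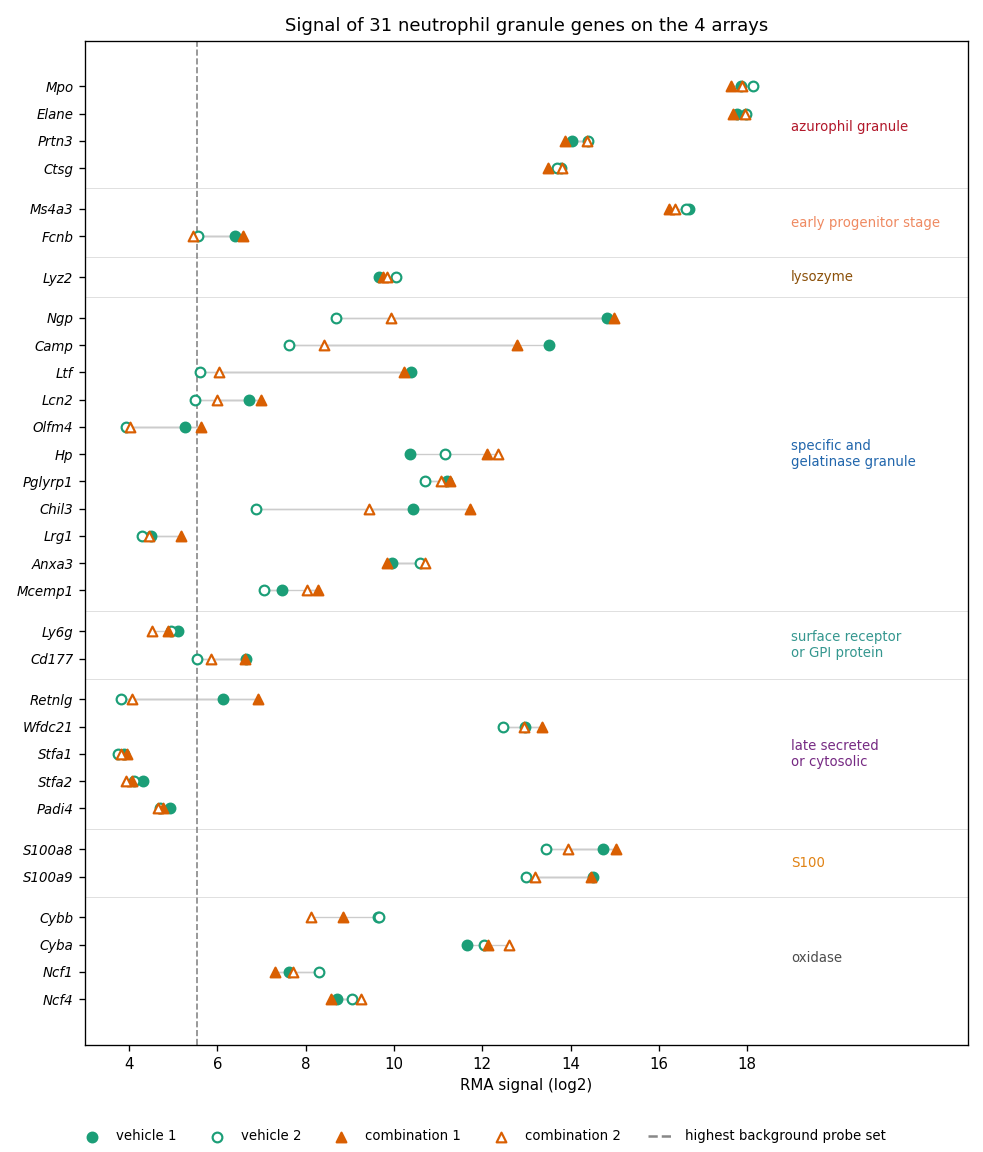
RMA signal (log2, horizontal axis) of each of the 31 genes on the 4 arrays, grouped by class; circles are vehicle, triangles combination, filled symbols number 1 and open symbols number 2, and the dashed line is the highest background probe set (5.55). The open symbols of Ngp, Camp, Ltf, Chil3 and Retnlg lie far to the left of the filled ones, whereas the 4 symbols of each azurophil gene lie close together.

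The azurophil granule genes were read at the bright end of the arrays. Mpo, which encodes myeloperoxidase, had signals of 17.86 and 18.13 with vehicle and 17.63 and 17.88 with the combination, above 99.61% of all features. Elane, neutrophil elastase, had 17.78 and 17.97 with vehicle and 17.68 and 17.94 with the combination. For both genes the groups overlapped and the spread over all 4 arrays was small. Prtn3, proteinase 3, had 14.03 and 14.40 with vehicle and 13.87 and 14.37 with the combination. Ctsg, cathepsin G, had 13.77 and 13.70 with vehicle and 13.50 and 13.80 with the combination. Combination minus vehicle was between -0.24 (Mpo) and -0.07 (Elane) in this class, and number 2 minus number 1 was between 0.12 (Ctsg) and 0.43 (Prtn3), with standard errors (SE) of 0.17 and 0.14. Whether the probes of Mpo and Elane respond in full at such signals was not tested.

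Genes of early granulocytic progenitors and lysozyme behaved differently from each other. Ms4a3, a membrane protein gene of granulocyte-monocyte progenitors, had 16.68 and 16.61 with vehicle and 16.23 and 16.37 with the combination, so that both combination arrays lay below both vehicle arrays. Its difference of -0.35 (SE 0.14) did not pass (limma adjusted p = 0.89). Fcnb, ficolin B, a lectin of early neutrophil precursors and monocytes, had 6.40 on vehicle 1 and 6.58 on combination 1 against 5.55 on vehicle 2 and 5.44 on combination 2. It thus split by number, by -0.99 (SE 0.16), and not by treatment, where the difference was 0.04. Its combination 2 signal lay within the background range and its vehicle 2 signal at the edge of it, which limits the measured number difference. Lyz2, lysozyme, which is present in all granule classes, stayed between 9.67 and 10.05 on the 4 arrays.

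Ngp, Camp and Ltf, 3 specific granule genes, had the largest differences between the numbers among the members. Ngp encodes neutrophilic granule protein, Camp the cathelicidin antimicrobial peptide, and Ltf the iron-binding protein lactoferrin. All 3 lie on chromosome 9, with 28 other protein-coding genes between the outermost in the RefSeq order of assembly GRCm38.p6. The 27 of these that were measured differed between the numbers by -0.43 to 0.82, with a median of -0.01, and none passed the limma threshold (0 of 27). The 250 bases before the RefSeq start of each gene are shown because these genes moved together, with the letters TTGCNNAA or their reverse complement TTNNGCAA, a form of the C/EBP motif, in capitals. They lie at chr9:110419558-110419807 on the plus strand (Ngp), chr9:111019042-111019291 on the plus strand (Ltf) and chr9:109849457-109849706 on the minus strand (Camp), and are written 5′ to 3′ along each gene.
Ngp: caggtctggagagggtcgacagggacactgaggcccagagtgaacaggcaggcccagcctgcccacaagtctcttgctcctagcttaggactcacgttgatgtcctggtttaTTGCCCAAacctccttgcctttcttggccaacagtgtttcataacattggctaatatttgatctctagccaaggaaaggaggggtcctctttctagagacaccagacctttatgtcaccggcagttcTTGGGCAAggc
Ltf: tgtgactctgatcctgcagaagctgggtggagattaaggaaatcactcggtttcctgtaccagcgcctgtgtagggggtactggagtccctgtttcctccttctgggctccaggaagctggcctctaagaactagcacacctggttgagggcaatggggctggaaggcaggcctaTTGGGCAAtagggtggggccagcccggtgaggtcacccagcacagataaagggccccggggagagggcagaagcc
Camp: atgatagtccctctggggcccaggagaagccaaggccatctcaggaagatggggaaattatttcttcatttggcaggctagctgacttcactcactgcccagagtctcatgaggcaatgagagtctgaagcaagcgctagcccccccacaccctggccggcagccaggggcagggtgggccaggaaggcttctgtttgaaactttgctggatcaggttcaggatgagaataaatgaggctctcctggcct

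The upstream sequence of Ngp held 2 such matches, that of Ltf 1 and that of Camp 0. In windows of 300 bases, from 250 before to 50 after the start, the letters occurred in 9 of the 27 members with a RefSeq window and in 10.8% of all 27025 windows. The letters GAGGAA or TTCCTC, the core of the PU.1 motif, occurred in 15 of the 27 and in 28.3% of all windows. Both strands were searched, matches of different motifs may overlap, and a match is a description of the letters only. The interferon response element occurred in 2 members, Cybb and Ncf1, and in 3.49% of all windows. The glucocorticoid receptor motif and the CREB motif, searched as TGACGTCA, occurred in 0 of the 27 windows, against 0.0407% and 1.88% of all windows.

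Ngp had signals of 14.82 on vehicle 1 and 14.98 on combination 1, against 8.69 on vehicle 2 and 9.93 on combination 2. Camp had 13.51 on vehicle 1 and 12.80 on combination 1, against 7.63 on vehicle 2 and 8.41 on combination 2. Ltf had 10.38 on vehicle 1 and 10.22 on combination 1, against 5.60 on vehicle 2 and 6.04 on combination 2. For each gene both number 1 arrays lay above both number 2 arrays, and the vehicle and combination arrays overlapped. The vehicle 2 signal was 69.9-fold below vehicle 1 for Ngp, 58.8-fold for Camp and 27.4-fold for Ltf. Combination 2 lay 33-fold, 20.9-fold and 18.2-fold below combination 1. Among all genes, ordered by number 2 minus number 1, Ngp ranked 3, Camp 5 and Ltf 13 from the bottom.

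In a limma fit of group and number together, number 2 minus number 1 was -5.59 (SE 0.29) for Ngp with an adjusted p of 0.037, -4.48 (SE 0.20) for Ltf with an adjusted p of 0.026, and -5.13 (SE 0.38) for Camp with an adjusted p of 0.066. So 2 of the 31 members were lower and 0 higher at an adjusted p under 0.05, against 0.0606% of all 65956 features lower and 0.0% higher. This fit has 1 residual degree of freedom, and its calls depended on the processing. After a second quantile normalization the adjusted p was 0.10 for Ngp and 0.056 for Ltf, after centring each array on its median 0.084 and 0.067, and with the control rows kept 0.31 and 0.30, while the differences stayed between -5.61 and -5.49 for Ngp and between -4.50 and -4.43 for Ltf. With a robust prior Ngp had an adjusted p of 0.052, and with an intensity trend Camp passed (0.044). In bulk samples such as these, fewer cells of a type and less RNA per cell cannot be told apart.

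Other genes of the specific and gelatinase class split by number too, less widely and without passing the limma threshold. Chil3, a chitinase-like protein gene also known as Ym1, had 10.44 and 11.72 on the arrays numbered 1 and 6.87 and 9.43 on those numbered 2. Olfm4, olfactomedin 4, which marks a subset of neutrophils, had 5.26 and 5.63 on number 1 and 3.93 and 4.02 on number 2. Only 1 of the 4 Olfm4 signals, that of combination 1, lay above the background range. Lcn2, lipocalin 2, which withholds iron from bacteria, had 6.72 and 6.98 on number 1 against 5.48 and 6.0 on number 2. Number 2 minus number 1 was -2.93 (SE 0.33), -1.47 (SE 0.15) and -1.11 (SE 0.15) for these genes, with limma adjusted p of 0.14, 0.13 and 0.20. In all 3 no number 1 array fell below a number 2 array.

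The remaining genes of this class differed by less than 2-fold or in the other direction. Pglyrp1, a peptidoglycan recognition protein gene, differed between the numbers by -0.35, Mcemp1, a membrane protein gene of mast cells and neutrophils, by -0.32, and Lrg1, a leucine-rich glycoprotein gene within the background range on every array, by -0.47. Hp, haptoglobin, differed by 0.52 and Anxa3, annexin A3, by 0.74, both towards higher signals on the arrays numbered 2. Anxa3 had 9.95 and 9.85 on number 1 and 10.58 and 10.69 on number 2, so that its order was the reverse of that of Ngp. Over the 11 genes of the class, 9 were lower on the number 2 array in both groups and 2 were higher in both. Of all 65956 features 17321 were lower in both groups and 19674 higher in both. The class median was -1.11, with -1.23 within vehicle and -0.98 within the combination, beside 0.01 over all features.

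The S100 genes, whose products form the calcium-binding complex calprotectin, went the same way as Lcn2. S100a8 had 14.74 and 15.02 on the arrays numbered 1 and 13.45 and 13.93 on those numbered 2. S100a9 had 14.50 and 14.46 on number 1 and 12.98 and 13.19 on number 2. These are differences of -1.19 and -1.39 (SE 0.15 for each), with limma adjusted p of 0.16 and 0.14, and neither gene's numbers overlapped. In the vehicle arrays S100a8 was 2.46-fold and S100a9 2.87-fold lower on number 2, and in the combination arrays 2.13-fold and 2.40-fold lower. The genes are next to each other on chromosome 3 in the RefSeq order.

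Among late-stage secreted and cytosolic genes, Retnlg stood apart. This resistin-like gene of mature neutrophils had 6.13 and 6.92 on number 1 against 3.81 and 4.06 on number 2, a difference of -2.59 (SE 0.19, limma adjusted p = 0.066). Both number 2 signals lay within the background range, so the measured 6.03-fold is better given as at least 1.97-fold, the number 1 mean over the highest background signal. Wfdc21, a small secreted protein gene of the whey acidic protein family, had 12.97 and 13.35 on number 1 and 12.47 and 12.95 on number 2. The cysteine protease inhibitor genes Stfa1 and Stfa2 and Padi4, which encodes the enzyme that citrullinates histones in neutrophil extracellular traps, lay within the background range on all 4 arrays. Among the surface proteins, Cd177 had 6.66 and 6.63 on number 1 and 5.54 and 5.84 on number 2, while Ly6g stayed between 4.51 and 5.10. The vehicle 2 signal of Cd177 lay within the background range.

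The oxidase genes showed the opposite sign for 3 of 4 members. Ncf1 (p47phox), a cytosolic organiser of the enzyme, had 7.63 and 7.30 on number 1 and 8.29 and 7.70 on number 2. Ncf4 (p40phox) had 8.70 and 8.57 on number 1 and 9.06 and 9.24 on number 2. Cyba (p22phox), the small membrane subunit, had 11.66 and 12.13 on number 1 and 12.05 and 12.62 on number 2. Number 2 minus number 1 was 0.53, 0.52 and 0.44 for these, and -0.34 for Cybb (gp91phox), the catalytic membrane subunit. None of the 4 passed the limma threshold on the number.

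Counted over all 31 members, both number 2 arrays lay below both number 1 arrays for 16, against 18.0% of all features, and above them for 7, against 19.9%. Among the 26 members with an array above the background range, these counts were 13 and 7. A difference of at least 2-fold on the number was seen downward in 9 members, against 0.99% of all features, and upward in 0, against 0.378%. Those 9 were Ngp, Camp, Ltf, Chil3, Retnlg, Olfm4, S100a9, S100a8 and Lcn2 by their measured signals. The background range leaves Retnlg a bound below 2-fold and Olfm4, with 3 of 4 signals within it, no fold, so that 7 of the 9 rest on signals above it in number 1 and, but for 1 Lcn2 array, in number 2. At an unadjusted limma p under 0.05 there were 12 lower and 6 higher members, against 5.35% and 4.8% of all features. The scatter of the number difference in each group sets the members among all genes.

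**Figure D2:**
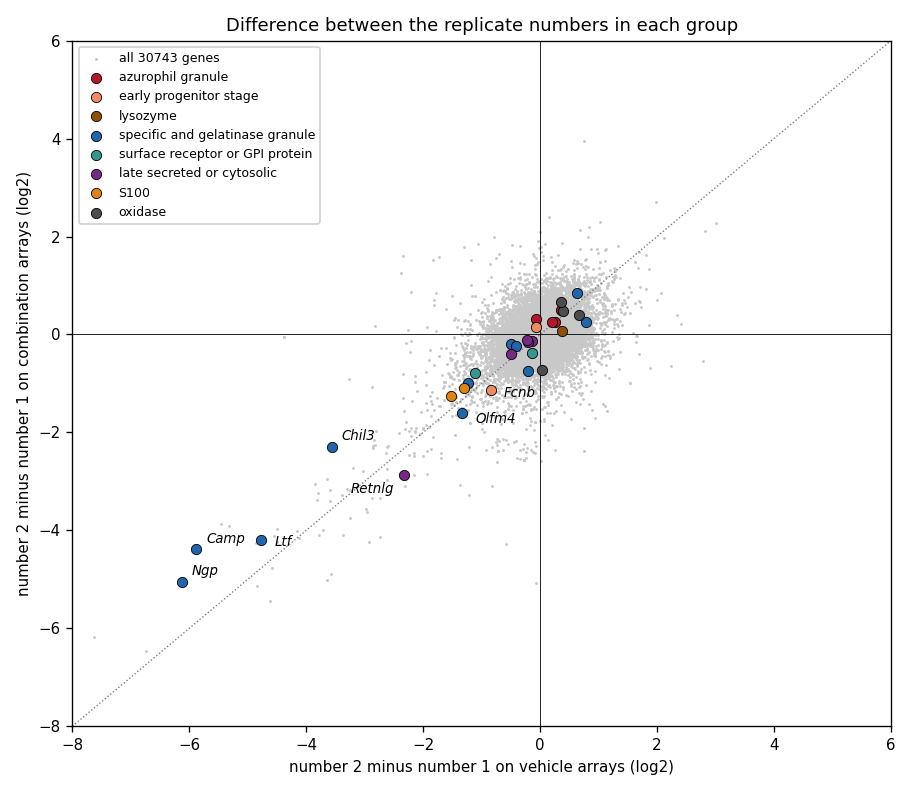
Number 2 minus number 1 (log2) on the vehicle arrays (horizontal axis) and on the combination arrays (vertical axis) for all 30743 genes (grey) and the 31 members (coloured by class); the dotted line marks equal values. Ngp, Camp, Ltf, Chil3 and Retnlg lie at the lower left, at -6.13 to -2.32 with vehicle and -5.05 to -2.29 with the combination, and the azurophil genes lie near the origin.

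Other genes moved with the number on the same arrays. Of the 33 genes lower on number 2 at a limma adjusted p under 0.05, 0.107% of all genes, 2 were Ngp and Ltf. The remainder were largely interferon-induced genes, among them Rsad2, which had the largest difference (-6.91), Usp18 and Isg15. Usp18 had 14.17 and 14.41 on number 1 and 7.43 and 7.95 on number 2, and Isg15 had 10.96 and 10.79 against 6.41 and 6.67. These genes were named here after their values were seen. Of 5 measured eosinophil markers, the granule protein genes Prg2, Prg3 and Epx were lower on both number 2 arrays, by -1.43, -2.17 and -2.07, without passing the limma threshold. The log2 of the summed signal of the 5 was 16.46 and 16.23 on number 1 and 15.09 and 14.70 on number 2, nearly all of it from Prg2, which alone had 16.41 and 16.19, then 15.07 and 14.68. Ccr3 and Il5ra, the receptor genes of this list, lay within the background range on all 4 arrays. Cd34 (9.50 and 9.38 on number 1, 10.48 and 10.38 on number 2) and Flt3 (5.92 and 6.01, then 7.25 and 6.71) lay higher on number 2. They are 2 of 8 measured stem and progenitor markers, of which 5 were higher and 3 (Kit, Mecom and Mycn) lower on number 2, with a median of 0.15. Of 8 measured monocyte markers 7 were higher on the number 2 array in both groups, beside 19674 of all 65956 features. The log2 of the summed signal of the 8 markers was 12.26 and 12.67 on number 1 and 13.05 and 13.02 on number 2. Of 3 measured erythroid markers, Klf1 (-1.18) and Epor (-0.69) were lower and Alas2 (1.56) was higher on number 2 in both groups, none past the limma threshold (0 of 3). The part of these other genes and cell types in the granule gene differences was not tested.

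The comparison of the drug combination with vehicle asks which transcripts respond to the drugs. In limma, 0 of the 31 members passed an adjusted p of 0.05 in either direction, against 0.00303% of all features higher and 0.0% lower. In simulated data without a number difference, this fit called 0.8% of features changed by 1 on the log2 scale. Of those changed by 2 it called 84.8%. The simulated spread came from the fit of group and number, so these shares do not carry over to genes that split by number. In the data the SE of the group difference was 2.62 for Ngp, 2.42 for Camp and 2.10 for Ltf. A member that did not pass may thus still differ between the groups. At an unadjusted p under 0.05, 2 members were higher and 1 lower, against 3.14% and 2.44% of all features. Differences of at least 2-fold were seen upward in 2, Chil3 and Hp, against 0.863%, and downward in 1, Cybb, against 0.503%. Both combination arrays lay above both vehicle arrays for 3 members, against 20.4% of all features, and below them for 4, against 13.9%. Among the 26 members with an array above the background range, these counts were 3 and 2. The median over the members was 0.07 (-0.02 for number 1 and 0.16 for number 2), beside 0.02 over all features.

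Hp, which encodes the haemoglobin-binding protein haptoglobin, had 10.36 and 11.15 with vehicle and 12.11 and 12.37 with the combination. Both combination arrays lay above both vehicle arrays, by 1.75 in number 1 and 1.21 in number 2. The difference of 1.48 (SE 0.30), or 2.79-fold, had a limma adjusted p of 0.60. Mcemp1 had 7.47 and 7.06 with vehicle and 8.28 and 8.04 with the combination. Its groups did not overlap, and the difference of 0.90 (SE 0.20) was 0.82 in number 1 and 0.98 in number 2, with a limma adjusted p of 0.68. Without 1 array at a time the difference stayed between 1.09 and 1.87 for Hp and between 0.69 and 1.10 for Mcemp1.

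The membrane subunits of the oxidase pointed in opposite directions. Cybb had 9.63 and 9.66 with vehicle and 8.84 and 8.12 with the combination, a difference of -1.17 (SE 0.27), or 2.25-fold lower, with a limma adjusted p of 0.70. Cyba, its partner, had 11.66 and 12.05 with vehicle and 12.13 and 12.62 with the combination, a difference of 0.52 (SE 0.24, limma adjusted p = 0.92). Neither gene's groups overlapped, and each difference had the same sign in both numbers. The cytosolic subunit genes Ncf1 and Ncf4 differed by -0.46 and 0.03. Without combination 2 the difference of Cybb was -0.81, and without combination 1 it was -1.53. Cybb is also expressed by monocytes. Of 8 measured monocyte markers 5 were lower on both combination arrays than on both vehicle arrays, against 13.9% of all features. These were Ccr2 at -1.77, Irf8 at -1.48, Ly86 at -1.14, Csf1r at -0.91 and Klf4 at -0.51. Of the 4 Klf4 signals 3 lay within the background range. F13a1 was higher on both, by 2.92, as were 20.4% of all features. None of the 8 passed limma's adjusted threshold (0 of 8). At an unadjusted limma p under 0.05, 3 were lower and 1 higher, against 2.44% and 3.14% of all features. The log2 of the summed signal of the 8 markers was 12.26 and 13.05 with vehicle and 12.67 and 13.02 with the combination. Their part in the difference of Cybb was not tested.

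Chil3 had the largest upward difference among the members, 1.92 (SE 1.40), with 1.28 in number 1 and 2.56 in number 2. Its vehicle arrays at 10.44 and 6.87 and its combination arrays at 11.72 and 9.43 overlapped, and limma's adjusted p was 0.95. Without vehicle 1 the difference was 3.70, without vehicle 2 it was 0.14, without combination 1 it was 0.78 and without combination 2 it was 3.06. Leaving out 1 array leaves the numbers unbalanced between the groups, so these values include part of the number difference of Chil3. Ngp differed by 0.16 in number 1 and by 1.24 in number 2, Camp by -0.71 and 0.78, and Ltf by -0.15 and 0.44. With 4 arrays the difference between the numbers in the drug response leaves no residual degree of freedom and was not tested.

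All 11 specific and gelatinase granule genes had a positive difference, from 0.01 for Anxa3 to 1.92 for Chil3, with a median of 0.39, and 8 of the 11 were higher with the combination in both numbers. Of all features 55.4% had a positive difference and 31% were higher in both numbers. The shared sign depended on single arrays in fits of group alone. Leaving out 1 array also leaves the numbers unbalanced between the groups, so a difference between the numbers enters the result. These fits therefore cannot judge the sign apart from the number. Without vehicle 2, 6 of the 11 were negative (Ngp at -2.36, Camp at -2.90, Ltf at -2.25, Lcn2 at -0.23, Olfm4 at -0.44 and Pglyrp1 at -0.020), and without combination 1, 5 were (Ngp, Camp, Ltf, Lcn2 and Olfm4). Without vehicle 1 or combination 2, 1 was negative (Anxa3). Of these 11, only Hp and Mcemp1 had both combination arrays above both vehicle arrays, as did 20.4% of all features. For the other 9 the arrays of the groups overlapped. Anxa3 and Camp turned negative, to -0.045 and -0.018, when each array was centred on its median. The 4 azurophil genes all had negative differences, of which 3 were negative in both numbers, and in all 4 the groups overlapped. S100a8 and S100a9 differed by 0.38 (SE 0.57) and 0.09 (SE 0.66), and Retnlg by 0.52 (SE 1.22).

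**Figure D3:**
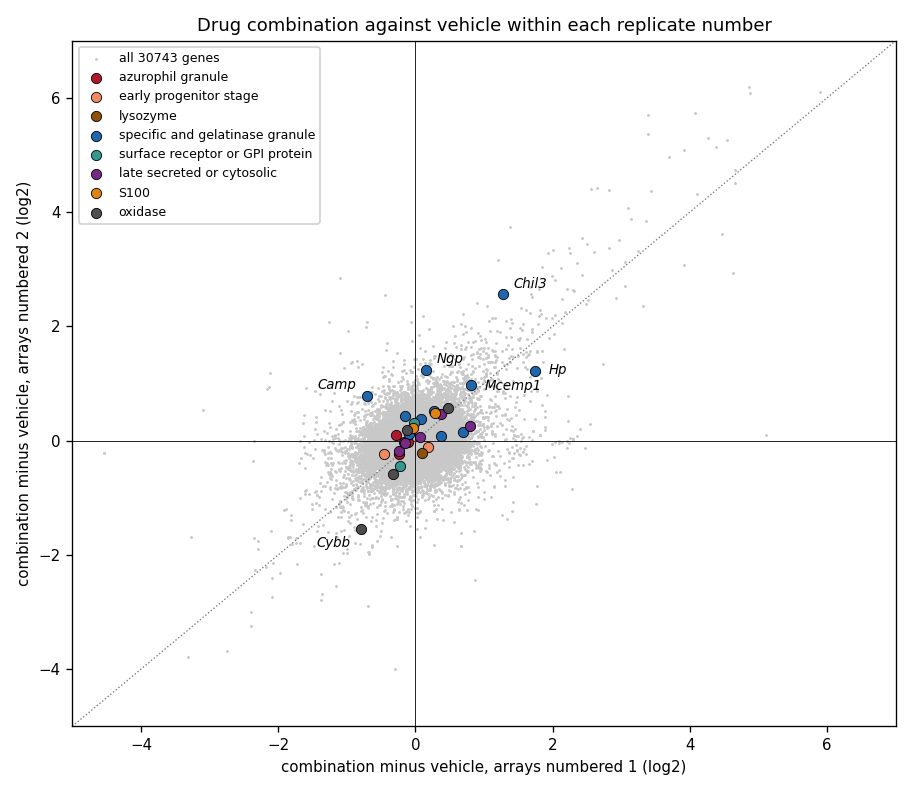
Combination minus vehicle (log2) between the arrays numbered 1 (horizontal axis) and between those numbered 2 (vertical axis) for all 30743 genes (grey) and the 31 members (coloured by class); the dotted line marks equal values. Hp (1.75 and 1.21), Chil3 (1.28 and 2.56) and Mcemp1 (0.82 and 0.98) lie at the upper right, Cybb (-0.79 and -1.55) at the lower left, and most members lie within the cloud of all genes.

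Genes linked to the granules outside the list of members were read in 4 further lists, of which 46 of 54 genes were measured. None of the 46 passed limma's adjusted threshold in either comparison (0 of 46), while at an unadjusted p under 0.05 for the combination 6 were higher and 1 was lower, beside 3.14% and 2.44% of all features. For the number 16 were higher and 1 was lower, beside 4.8% and 5.35%. Among 18 other granule cargo genes, Mmp8, the neutrophil collagenase of specific granules, had 6.29 and 4.34 with vehicle and 8.13 and 7.37 with the combination, a difference of 2.43 (SE 0.70, limma adjusted p = 0.80). Ctsc, which encodes the protease that activates elastase, proteinase 3 and cathepsin G, had 10.90 and 11.90 with vehicle and 9.84 and 10.74 with the combination. Clec5a, a myeloid lectin gene, and Mmp8 had the largest number differences of this list, 1.41 and -1.36. Mmp9, gelatinase B, which defines gelatinase granules, lay within the background range on all 4 arrays.

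Among 7 measured oxidase-related genes, Prkcd, a kinase that phosphorylates p47phox, had 11.29 and 11.79 with vehicle and 9.43 and 10.09 with the combination, a difference of -1.78 (SE 0.30, limma adjusted p = 0.49). Vav1, an activator of Rac, differed by -0.64, and 6 of the 7 genes had negative differences. Rac2, the Rac protein of blood cells, and Prkcd were higher on number 2 by 0.59 and 0.58. In 11 genes of granule sorting and exocytosis the differences stayed between -0.26 (Rab3d) and 0.19 (Lyst) for the combination and between -0.19 (Vamp2) and 0.42 (Rab3d) for the number. Unc13d, a priming factor of granule release, differed by -0.24 for the combination, and Rab27a, a GTPase that docks granules, by 0.35 for the number.

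Among 10 measured regulators of granulopoiesis, Csf3r, the G-CSF receptor gene, had 8.45 and 9.45 with vehicle and 7.91 and 8.33 with the combination, a difference of -0.83 (SE 0.38, limma adjusted p = 0.92). Runx1 differed by -0.49. Csf3r and Lef1 had the largest number differences of this list, 0.71 and 0.60, both towards number 2, although Lef1 lay within the background range on all 4 arrays. Cebpe, the C/EBP factor that specific granule genes require, had 6.71 and 6.68 on number 1 and 7.05 and 7.34 on number 2, a difference of 0.50 that did not pass (limma adjusted p = 0.43). Of the 10 regulators 7 had a positive number difference, with a list median of 0.47 beside 0.01 over all features. Both number 2 arrays lay above both number 1 arrays for Cebpe, as for 19.9% of all features. The part of Cebpe in the differences of Ngp, Camp and Ltf was not tested. Cebpa, which acts earlier, had 10.95 and 10.82 on number 1 and 11.69 and 11.13 on number 2.

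Of 7 measured mature neutrophil markers, among them Mmp8 and Csf3r, 4 were higher with the combination at an unadjusted limma p under 0.05. The share of all features was 3.14%. None of the 7 markers passed after adjustment (0 of 7). Of these, named here after their values were seen, Cxcr2, the receptor for neutrophil chemokines, had 9.06 and 8.87 with vehicle and 12.75 and 13.83 with the combination, and Trem1, a receptor that amplifies inflammation, had 8.11 and 8.55 with vehicle and 12.48 and 13.68 with the combination. Their differences of 4.32 and 4.75 had limma adjusted p of 0.20 and 0.21. The log2 of the summed signal of the 7 markers was 10.51 and 10.84 with vehicle and 13.72 and 14.83 with the combination. Cxcr2 and Trem1 carried that sum on the combination arrays, and the mean log2 signal of the 7 was 6.96 and 6.88 with vehicle and 8.51 and 9.11 with the combination. Csf3r lay lower with the combination, and Mmp9 lay within the background range. The largest upward difference among the 31 members was 1.92 (Chil3), and the part of these markers in the granule gene differences was not tested. By number the same markers had a median of 0.51 (-0.05 with vehicle and 1.07 with the combination), beside -1.11 for the specific and gelatinase granule genes. The strip plot of lists places these medians side by side.

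**Figure D4:**
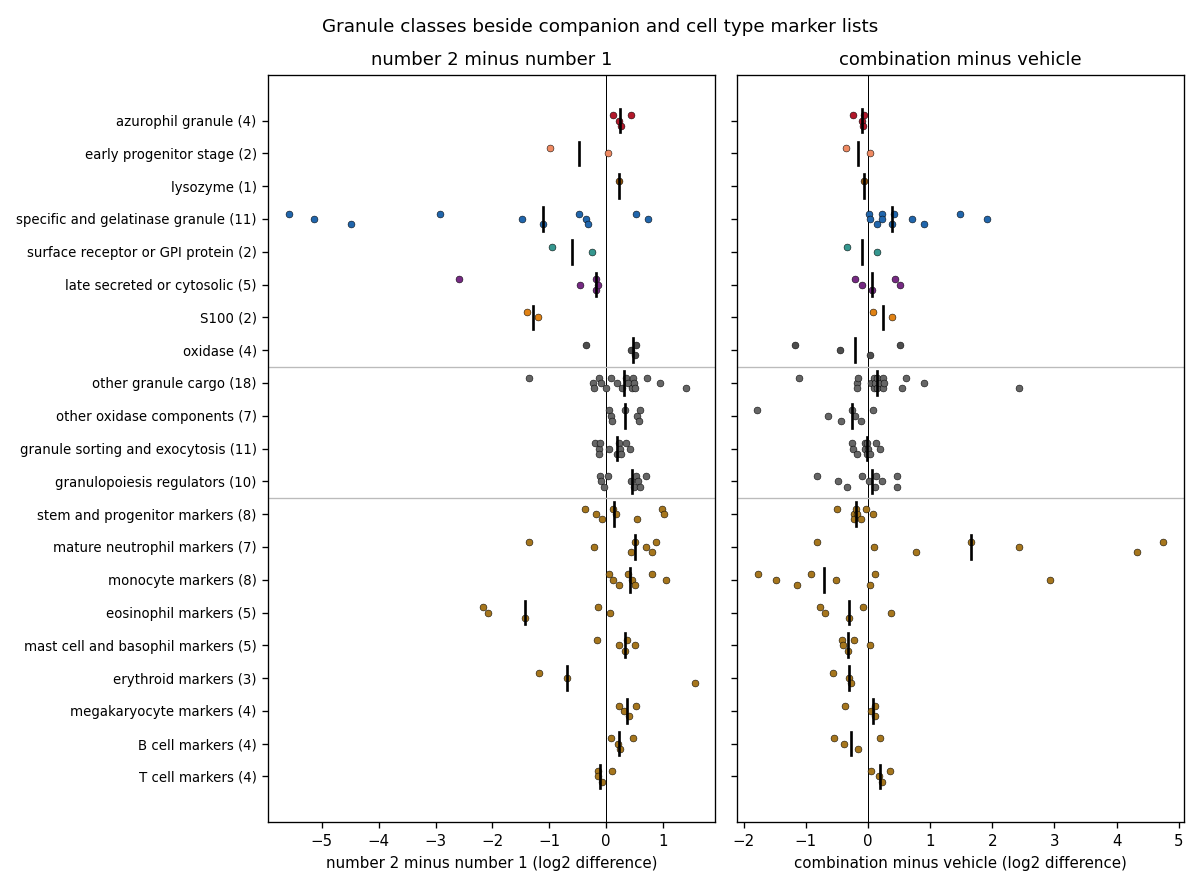
Log2 difference of each gene (points) by list, with the number of measured genes in parentheses, for number 2 minus number 1 (left) and combination minus vehicle (right); black bars are medians, coloured points are members, grey points companion lists and brown points cell type markers. On the left the specific and gelatinase granule genes reach -5.59 with a median of -1.11 and the eosinophil markers have a median of -1.43, and on the right the mature neutrophil markers reach 4.75.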

How the data were processed

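Per the labels, total RNA (10 ng) of each sample was amplified and biotin-labelled for Affymetrix arrays. The values the authors deposited are log2 signals. The submitters' processing notes name RMA and the Transcriptome Analysis Console, a vendor program. RMA subtracts background, brings the arrays to 1 distribution and summarises the probes of a set, which compresses low signals and hides shifts in RNA content per cell. The sources used here do not give its version or the genome build.

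Of 72688 rows, 6732 control rows were left out, which left 65956 features. Of these, 30604 had 1 symbol, 612 gave older and current names of 1 gene, 1534 had several genes and 33206 had none listed. Through Entrez identifiers 827 symbols were updated (RefSeq, GRCm38.p6). Promoter sequences are RefSeq's, 1 window per gene, and 27 of 31 members had one.

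limma 3.58.1 (R 4.3.3) fitted group alone (2 residual degrees of freedom) or, for the number, group and number (1), two-sided, with Benjamini-Hochberg adjustment over all features, and was tested on simulated data. SE are moderated. P-values measure only the spread between these samples. Members, classes and lists were chosen with earlier results of these data known. Named from the companion lists were genes past the threshold and otherwise the 2 largest differences in each comparison, and any other was chosen after its values were seen. Alternatives were another variance prior, a filter at the median signal, 2 normalizations, control rows kept, probe set means, the replicate block and leaving out each array.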

Additional observations from a re-analysis of the deposited data

How the results depend on the processing

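For the drug combination, 0 members passed under every alternative run. The count of all features that passed was 2 and fell to 0 with a filter at the median signal, a second quantile normalization, the control rows kept or an intensity trend, and to 0 (range 0 to 0) without any 1 array. The members' median of 0.07 ran from -0.13 to 0.46 without 1 array. Fits without 1 array held group alone and left the numbers unbalanced, so their ranges include the difference between the numbers. Centring each array on its median turned Fcnb to -0.016, Camp to -0.018, Anxa3 to -0.045 and Ncf4 to -0.023. Leaving out 1 array turned the sign of further small differences, with ranges of -0.41 to 0.43 for Anxa3, -0.22 to 0.012 for Padi4, -0.31 to 0.37 for Ncf4, -0.20 to 0.064 for Elane, -0.35 to 0.16 for Prtn3, -0.53 to 0.60 for Fcnb and -0.25 to 0.13 for Lyz2. The ranges were -2.36 to 3.76 for Ngp, -2.90 to 2.97 for Camp, -2.25 to 2.53 for Ltf, -0.23 to 1.00 for Lcn2, -0.58 to 1.03 for Olfm4 and -0.020 to 0.48 for Pglyrp1. They were -0.42 to 0.70 for Cd177, -0.91 to 1.95 for Retnlg, -0.0038 to 0.14 for Stfa1, -0.27 to 1.03 for S100a8, -0.67 to 0.85 for S100a9 and -0.24 to 0.068 for Ctsg.

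The replicate numbers share only a number here, since the labels do not say that they pair the samples. Deviations of same-numbered samples from their group means correlated at 0.401 across features. With the replicate block 19 features passed for the combination, 0 of them members.

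For the number, 40 features and 2 members passed, and 0 of each after a second quantile normalization, after centring or with the control rows kept, while 1 member passed with a robust prior. The members' median of -0.32 was -0.26 after the second quantile normalization. The causes were not tested. No array could be left out of this comparison, because no residual degree of freedom remains. Without Chil3 and Wfdc21, an alternative chosen after seeing the data, 0 and 2 members passed. Signals within the background range limit 10 members, 5 of them on all 4 arrays.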
